A study of Mus musculus with 4 samples.

Results

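The collagen genes of the mouse were taken as all autosomal protein-coding genes of the GENCODE annotation of mm9 whose symbol reads Col, a number, the letter a and a number. There were 41 such genes among 21418 autosomal protein-coding genes. Col4a5 and Col4a6 lie on the X chromosome and Col4a3bp carries further letters, so these were not members. The 41 genes covered 4.646 Mb, with a median length of 107.3 kb against 15.5 kb over all genes. The shortest was Col10a1 with 7.1 kb and the longest Col25a1 with 419.0 kb. The authors carried out H3K36me3 ChIP-seq on testis germ cells taken at 14 dpp (days post-partum) from C57BL/6J mice (B6) and from B6.Cg-Prdm9<tm1.1Kpgn>/Kpgn mice (KI). KI carries the B6 genome with the zinc-finger exon of Prdm9 replaced by that of the CAST allele, so PRDM9 binds other hotspots in KI than in B6. The labels call the cells spermatocytes, name the antibody H3K36me6 where the sample titles read H3K36me3, and give the age of the inputs as 15 dpp. For each strain 2 biological replicates were merged before peak calling, which left 1 pooled list per strain. No value below therefore has a replicate error and no strain difference could be tested.

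Collagens are the main fibrous proteins of the extracellular matrix, and their chains wind around each other into a helix built on a short repeat that opens with glycine. In the testis they lie in the basement membrane under the seminiferous epithelium and in the interstitium, and are made chiefly by somatic cells. Trimethylation of H3K36 is laid over the bodies of transcribed genes by SETD2, towards their 3′ ends, while PRDM9 places the same mark on a few nucleosomes at recombination hotspots. Collagen genes in a germ cell preparation are thus long matrix genes of other cells in which both kinds of mark can be looked for. The deposited lists hold broad (unrefined) regions and narrow (refined) peaks called inside them, with positions but no height, so the depth behind a peak is unknown and a mark in few cells cannot be told apart from a low level in all cells. Coverage below is the share of a gene's length in broad regions, and a gene with at least 50% coverage is called marked.

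3 stretches of refined peaks in these genes are given as examples, not as a sample of all peaks. Sequences are of mm9, written 5′ to 3′ on the strand of the gene, with the bases of coding exons in capitals. The first 2 are the overlaps of refined peaks found in both strains in Col7a1 (chr9:108875507-108875745, + strand) and in Col15a1 (chr4:47311937-47312221, + strand), shown because they reached coding exons, as most of the peaks did not. Col7a1 encodes the chain of the anchoring fibrils below epithelia, and its stretch held 2 coding exons of 69 and 45 bp. Col15a1 encodes a chain of basement membrane zones, and its stretch held 1 coding exon of 50 bp.
Col7a1: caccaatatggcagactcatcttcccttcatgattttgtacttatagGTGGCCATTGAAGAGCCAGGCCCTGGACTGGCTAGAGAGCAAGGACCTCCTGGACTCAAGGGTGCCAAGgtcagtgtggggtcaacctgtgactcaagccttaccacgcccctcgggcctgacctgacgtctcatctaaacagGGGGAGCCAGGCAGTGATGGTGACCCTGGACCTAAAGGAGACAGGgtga
Col15a1: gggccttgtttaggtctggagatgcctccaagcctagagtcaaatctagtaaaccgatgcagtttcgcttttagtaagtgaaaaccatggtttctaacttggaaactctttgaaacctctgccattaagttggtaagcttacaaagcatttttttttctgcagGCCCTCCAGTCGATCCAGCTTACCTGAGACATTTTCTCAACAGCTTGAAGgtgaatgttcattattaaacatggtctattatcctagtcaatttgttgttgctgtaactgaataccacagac
The last is the 300 bp at the middle of the widest refined peak found in B6 only, which lay in Col4a4 (chr1:82564825-82565124, − strand), a gene for a chain of the basement membrane network.
Col4a4: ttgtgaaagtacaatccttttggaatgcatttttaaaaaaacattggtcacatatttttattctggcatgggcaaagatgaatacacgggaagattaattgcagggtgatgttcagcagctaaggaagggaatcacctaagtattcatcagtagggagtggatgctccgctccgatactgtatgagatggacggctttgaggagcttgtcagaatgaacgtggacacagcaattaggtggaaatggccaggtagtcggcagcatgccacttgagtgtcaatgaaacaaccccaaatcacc
It held no coding base. The GC content was 55.6% in the stretch of Col7a1, 40.4% in that of Col15a1 and 43.7% in that of Col4a4.

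Most collagen genes carried little of the mark. In B6, 3 of 41 were marked, against a background of 43.2% of all autosomal protein-coding genes, and in KI 1 of 41, against 41.6%. Only Col9a3 was marked in both strains, where the background was 40.2%. The median coverage of the collagen genes was 4.9% in B6 and 5.4% in KI, while it was 21.5% and 19.0% over all genes. The gap was wider in the upper range, since the upper quartile was 16.6% in B6 and 18.4% in KI against 91.7% and 89.2% over all genes. At the other end, 11 members had no base in a broad region in each strain (26.8%), against 39.3% of all genes in B6 and 37.5% in KI. Col5a3, Col6a1, Col6a2, Col6a3, Col6a5 and Col9a1 were at 0 in both strains, which is 6 of 41 where the background was 33.9%. The plot of coverage by gene shows this low and scattered pattern, and the cumulative plot shows the collagen curve above that of all genes from 10% coverage upwards.

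**Figure D1:**
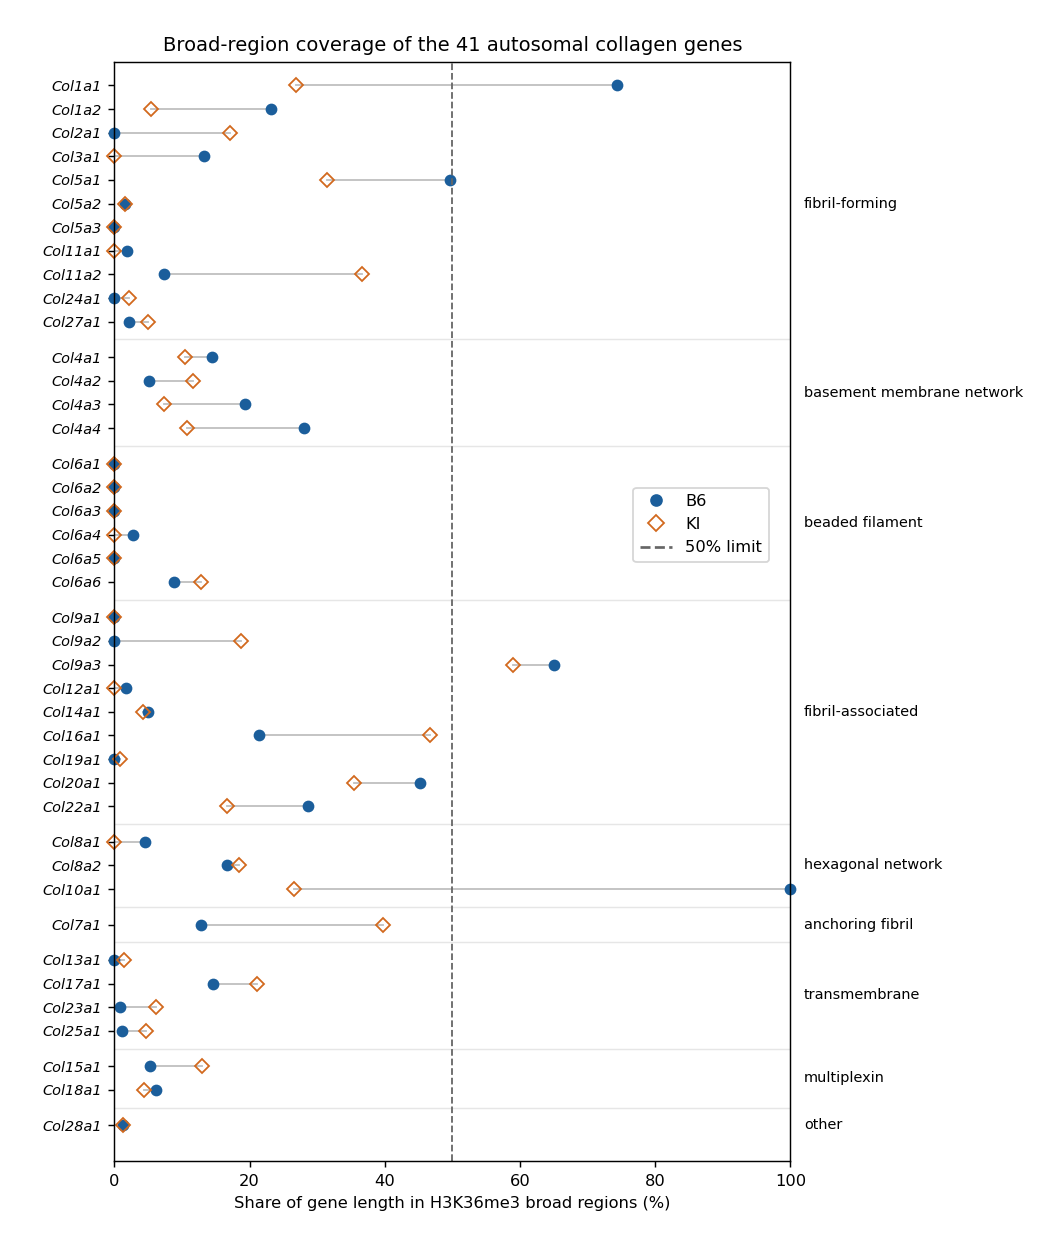
Share of each collagen gene's length in broad H3K36me3 regions (x axis, %), with 1 row per gene grouped by class; filled circles are B6, open diamonds KI, and the dashed line marks 50%. Only Col9a3 lies to the right of the line in both strains (65.1% and 59.0%), and Col1a1 and Col10a1 do so in B6.

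**Figure D2:**
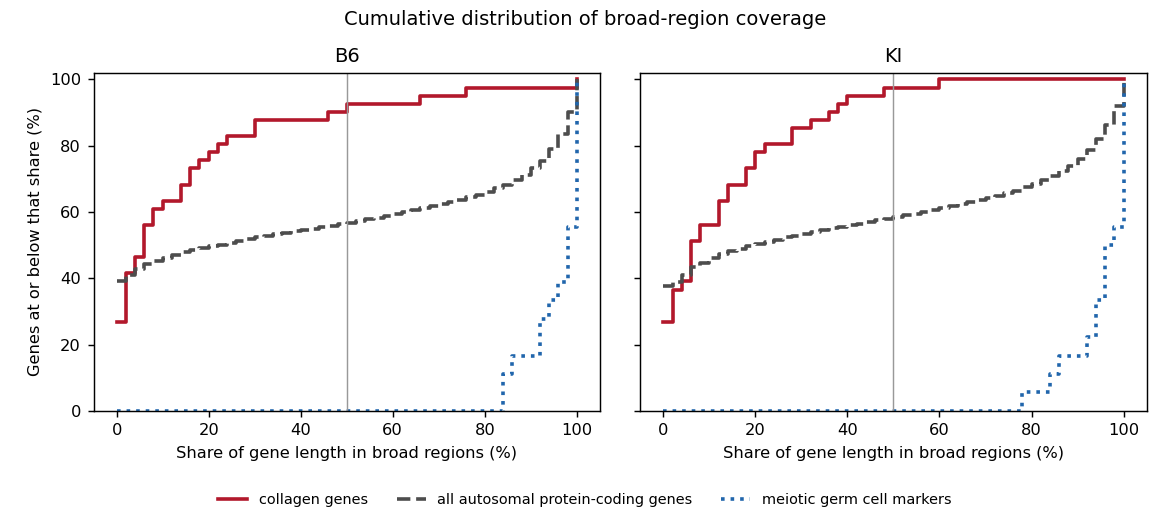
Cumulative share of genes (y axis, %) at or below each coverage (x axis, % of gene length in broad regions) for the 41 collagen genes, all 21418 genes and 18 meiotic germ cell markers, in B6 and KI. The collagen genes gather at low coverage while the meiotic markers, at a median of 96.7% and 96.0%, gather at the upper end.

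The 3 marked genes all shared broad regions with another gene. Col10a1 (chr10:34109787-34116891), which encodes the network collagen of hypertrophic cartilage, had 100% coverage in B6 and 26.6% in KI. It lies wholly within Nt5dc1 on the opposite strand (coverage 80.9% and 65.2%), inside a broad region of 36.5 kb in B6 and partly in a region of 17.0 kb in KI. Col9a3 (chr2:180332495-180356894), a chain of the fibril-associated type IX collagen of cartilage, had 65.1% in B6 and 59.0% in KI. Its 3′ part lay in a region of 29.0 kb in B6 and 32.0 kb in KI that ran into Tcfl5, which was at 97.6% in both strains and overlaps Col9a3 by 234 bp. Col1a1 (chr11:94797538-94814356), the main chain of type I collagen fibrils, had 74.3% in B6 and 26.8% in KI. In B6 this was a run of 12.5 kb within the gene, which also spans Gm17329, a gene of 1.2 kb on the opposite strand at 100% in both strains, and in KI 2 runs of 2.0 and 2.5 kb. Without broad regions that reach another protein-coding gene no collagen gene was marked in either strain. None of the 35 members that overlap no other protein-coding gene was marked. Over bases that no other protein-coding gene overlaps, Col1a1 kept 72.4% in B6, and Col9a3 kept 64.8% in B6 and 58.6% in KI. Col1a1 in B6 and Col9a3 in both strains thus stayed marked over bases outside other genes.

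Next below the limit in B6 were Col5a1 with 49.6%, Col20a1 with 45.2% and Col22a1 with 28.7%, and in KI Col16a1 with 46.7%, Col7a1 with 39.7% and Col11a2 with 36.7%. None of these 6 reached its coverage through a region shared with another gene. In most members the broad regions were small and set apart. The 109 broad regions in collagen genes in B6 had a median width of 3.0 kb, and 75.2% were under 5 kb, against 5.0 kb and 49.8% over all genes. The 105 in KI also had a median of 3.0 kb with 76.2% under 5 kb, against 4.0 kb and 54.9%. Of the members, 38 were unmarked in both strains, while all genes include marked ones. In genes marked in both strains the median longest run was 18.0 kb in B6 and 16.5 kb in KI. The narrower widths were thus partly built into the comparison, and widths in unmarked genes alone were not computed. The widest were those of 51.0 kb in B6 and 52.0 kb in KI that ran from Slk into the 3′ end of Col17a1. Regions that reached another gene made up 9 of the 109 in B6 and 8 of the 105 in KI, and held 11.7% and 8.9% of the covered collagen bases. Of the nearest genes that are not collagens, 23 of 36 upstream and 15 of 34 downstream were marked in B6, and 22 and 13 in KI. Over all genes 43.2% were marked in B6 and 41.6% in KI. These neighbours lay up to 882.7 kb away, and Irs2 and Rab20 were counted on both sides.

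Over the whole annotation the share of marked genes varied with length, so the members were also set beside genes of their own length. Of the 11 collagen genes of 20 to 50 kb, 1 was marked in each strain (9.09%), where 58.1% of all genes of that length were marked in B6 and 55.6% in KI. Of the 17 of 100 to 200 kb none was marked, against 45.1% and 40.8%. Of the 6 of 200 kb or more none was marked, against 24.5% and 19.1%. The share of marked collagen genes was thus below that of all genes in each of these length classes and both strains. The 3 genes of 50 to 100 kb were unmarked as well, against 57.3% and 54.6%. Below 20 kb, 2 of 4 were marked in B6 and 0 of 4 in KI against 35.9% and 35.3%. The share of genes without a covered base also varied with length. In B6, 3 of the 11 collagen genes of 20 to 50 kb were at 0 (27.3%) against 23.5% of all genes of that length, and 2 of the 17 of 100 to 200 kb (11.8%) against 13.0%. In KI these were 3 of 11 against 21.3% and 5 of 17 (29.4%) against 9.04%. Among the 6 of 200 kb or more, 2 were at 0 in B6 against 8.25% and 0 in KI against 4.29%. The lower share of collagen genes at 0 among genes of all lengths was thus not seen in most of the longer length classes.

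Among the 11 fibril-forming collagens, the rope-like collagens of connective tissue, the median coverage was 2.1% in B6 and 5.0% in KI. Col1a2, the partner chain of Col1a1, had 23.1% in B6 and 5.4% in KI. Col3a1, the chain of type III collagen of pliable tissues, had 13.2% in B6 and 0.0% in KI, while its neighbour Col5a2, 24.6 kb away, had 1.6% in both. Both chains of type I collagen and that of type III thus had more coverage in B6 than in KI. Col5a1, which encodes a chain that sets fibril width, had 49.6% in B6 and 31.4% in KI, spread over 13 runs in each strain along 153.1 kb. A pair of cartilage collagens went the other way: Col2a1 had 0.0% in B6 and 17.1% in KI, and Col11a2 had 7.3% in B6 and 36.7% in KI. Col11a1 with 1.8% and 0.0%, Col24a1 with 0.0% and 2.1% and Col27a1 with 2.1% and 5.0% were close to bare in both.

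The 4 genes of the basement membrane network had medians of 16.9% in B6 and 10.6% in KI and no member at 0. They stand in 2 pairs that point away from each other: Col4a1 and Col4a2, which make the common network, share 22 bp at their starts, and Col4a3 and Col4a4, whose chains join in the network of the kidney glomerulus, lie 71 bp apart. Col4a1 had 14.4% in B6 and 10.5% in KI, and Col4a2 had 5.1% and 11.7%. Col4a3 had 19.3% in B6 and 7.4% in KI, and Col4a4 had 28.1% and 10.7%. In the second pair both genes therefore had more coverage in B6, and in the first the partners differed in direction. Col6a1 and Col6a2, which lie 85.2 kb apart and encode chains of the beaded filaments around cells, were at 0 in both strains with no refined peak. Col6a4 had 2.8% in B6 and 0.0% in KI. In this class of 6 the highest coverage was 8.8% in B6 and 12.8% in KI, both in Col6a6, where part of it was the end of a region from Pik3r4 of 50.5 kb in B6 and 48.0 kb in KI.

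The 9 fibril-associated collagens, which bind to the surface of fibrils, ranged from 0.0% to 65.1% in B6 and from 0.0% up to 59.0% in KI. Next to Col9a3, Col20a1 had 45.2% in B6 and 35.5% in KI, Col16a1 had 21.4% and 46.7%, and Col22a1, a collagen of tissue junctions, had 28.7% and 16.6%. Col9a1 and Col9a2, which encode the other chains of type IX collagen, had 0.0% in B6, and in KI 0.0% and 18.8%. Col9a3 thus stood above the other genes of its own collagen in both strains. Col14a1 with 4.9% and 4.2%, Col12a1 with 1.7% and 0.0% and Col19a1 with 0.0% and 0.9% were low. Col8a1 and Col8a2, which form the hexagonal lattice below the corneal endothelium, had 4.6% and 16.6% in B6 and 0.0% and 18.4% in KI. Col7a1 had 12.8% in B6 and 39.7% in KI. The 4 transmembrane collagens all had more coverage in KI, with a median of 1.0% in B6 and 5.4% in KI. Col17a1, a collagen of hemidesmosomes, had 14.6% and 21.1% with the region from Slk included, Col23a1 had 0.9% and 6.1%, Col25a1 had 1.1% and 4.7%, and Col13a1 had 0.0% and 1.4%. Col18a1, a heparan sulfate collagen of basement membranes and the source of endostatin, had 6.2% in B6 and 4.4% in KI, part of it from a region that reached Slc19a1. Its relative Col15a1 had 5.2% and 12.9%, and Col28a1 had 1.3% in both.

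Between the strains the coverage of collagen genes moved in both directions. It was higher in B6 in 17, higher in KI in 16 and equal in 8, with a median difference of 0.0 percentage points. Of all 21418 genes, 6545 were higher in B6, 3773 were higher in KI and 11100 were equal. B6 stood at least 10 percentage points above KI in 8 members (19.5%), against a background of 11.0% of all genes, and KI stood as far above B6 in 5 (12.2%), against 5.74%. These shares varied with length too: B6 stood that far above KI in 3 of the 17 members of 100 to 200 kb (17.6%) against 18.1% of all genes of that length, and in 2 of the 11 of 20 to 50 kb (18.2%) against 12.0%. KI stood that far above B6 in 0 of the 17 against 1.46% and in 3 of the 11 (27.3%) against 5.84%. The 5 with the largest excess in B6 were Col10a1 by 73.4 points, Col1a1 by 47.6, Col5a1 by 18.3, Col1a2 by 17.7 and Col4a4 by 17.4. The 5 in which KI exceeded B6 by 10 points or more were Col11a2, Col7a1, Col16a1, Col9a2 and Col2a1, with values of B6 minus KI of -29.4, -26.9, -25.3, -18.8 and -17.1 points. Across genes Spearman's rho between the coverage in B6 and in KI was 0.68 over the 41 collagen genes and 0.93 over all 21418. These are correlations across genes of 2 lists, in which neighbouring genes can share a region and which differ in depth, as the methods give more aligned reads for KI than for B6. With 1 list per strain, a difference between the strains cannot be told apart from a difference between preparations.

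**Figure D3:**
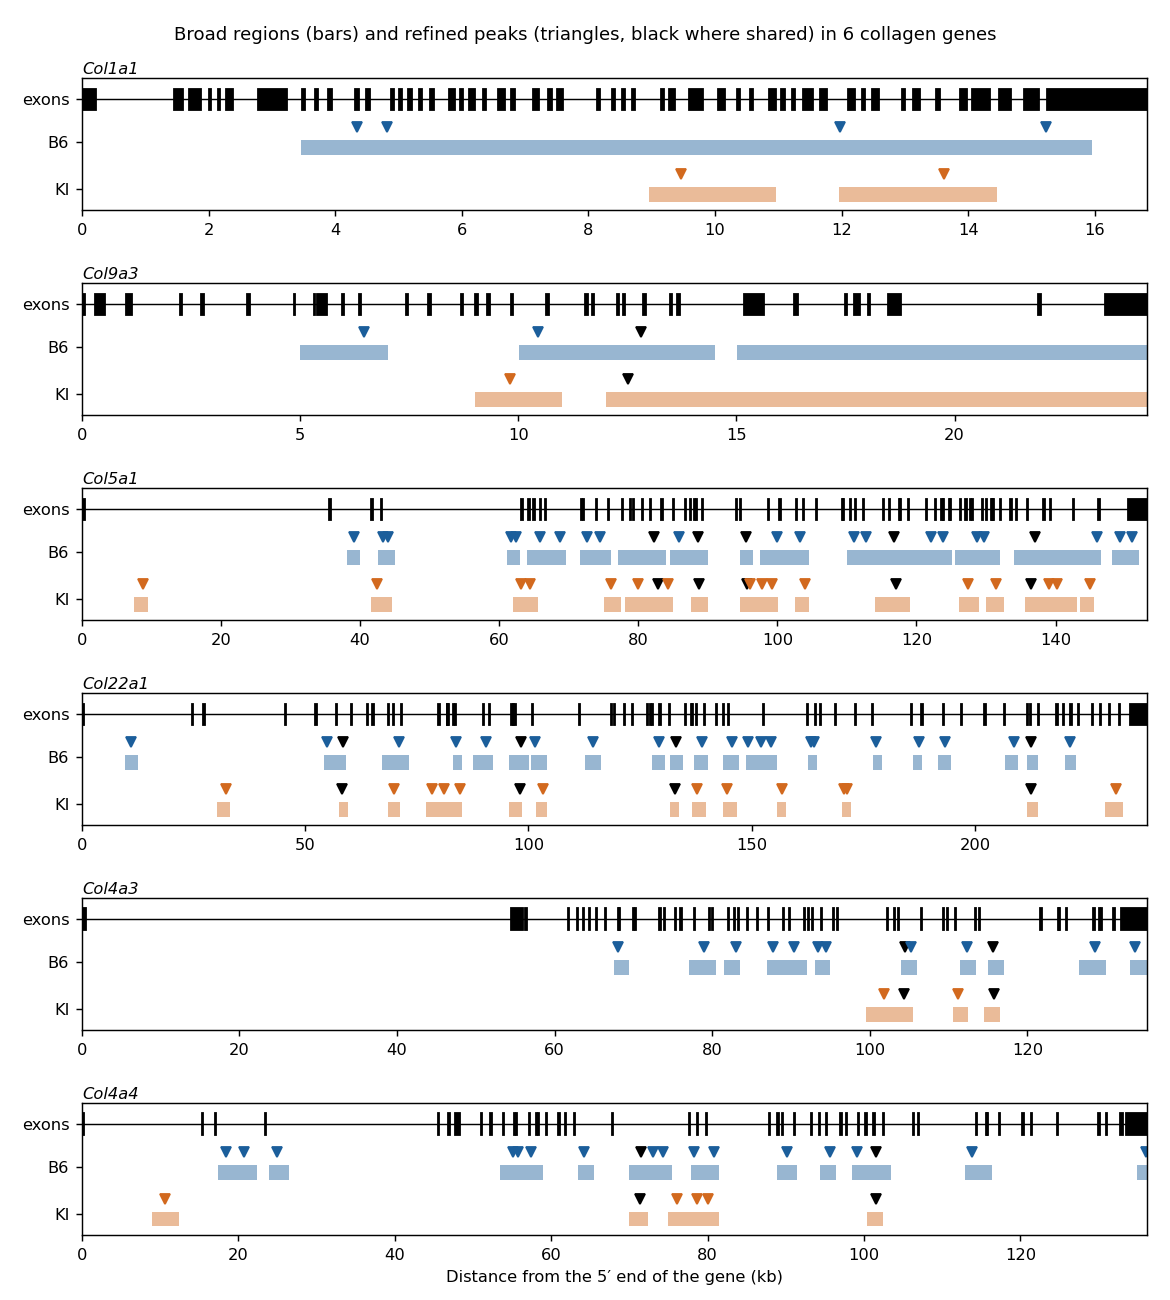
Exons (black boxes, drawn with a minimum width), broad regions (bars) and refined peaks (triangles at their midpoints, black where the peaks of both strains overlap) in 6 collagen genes, by distance from the 5′ end of the gene in kb (x axis); blue is B6 and orange KI. Col1a1 has 1 run of 12.5 kb in B6 and 2 short runs in KI, Col9a3 is covered towards its 3′ end in both, and the 4 long genes carry many short regions, with at least as many in B6 as in KI.

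Pooled over the collagen genes, coverage was highest at the 3′ end, but not in every length class. With each gene cut into 3 equal parts and the bases pooled over the 41 members, coverage in B6 was 3.1% in the 5′ part, 9.5% in the middle and 12.4% in the 3′ part. In KI it was 4.3%, 8.2% and 9.9%. In the 6 members of 200 kb or more, which hold 1.750 of the 4.646 Mb, the middle part was highest, with 3.2%, 6.4% and 5.1% in B6 and 4.3%, 8.0% and 3.9% in KI. The fibril-associated class was highest in the middle as well, with 13.8% there and 13.4% in the 3′ part in B6, and 13.5% and 10.7% in KI. Both groups hold Col22a1, whose middle part had 47.2% in B6 and 26.6% in KI, so they are not separate cases. In B6 every other member of 200 kb or more had 0.0% in its middle part. Over all genes the same parts had 34.5%, 39.3% and 42.8% in B6 and 31.7%, 36.4% and 39.8% in KI, which is the order of the pooled collagen genes at a higher level. In 10 equal bins over the 37 collagen genes of 20 kb or more, the mean coverage in B6 was 1.1% in the first bin and 18.5% in the last, and in KI 3.2% and 21.1%. The 4353 genes of that length that were unmarked in both strains had 4.6% and 17.2% in those bins in B6 and 5.0% and 15.1% in KI. Without Col9a3, the 36 collagen genes of that length that were unmarked in both strains had 1.2% and 16.2% in B6 and 3.3% and 18.9% in KI, so in the last bin they stood below the other unmarked genes in B6 and above them in KI. The 4571 genes marked in both had 64.0% and 95.9% in B6 and 59.4% and 94.5% in KI. Part of the collagen value in the last bin came from regions that also reached a neighbouring gene. In both strains such regions covered the 3′ end of Col17a1, Col9a3, Col8a2, Col6a6 and Col18a1. Their share of the last bin was not computed. The first base of the gene lay in a broad region in 1 member in each strain, Col10a1 in B6 and Col9a3 in KI, against a background of 5.92% of all genes in B6 and 6.20% in KI. In Col9a3 this was the end of a region that covers Ogfr and reaches 6 bp into the gene.

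**Figure D4:**
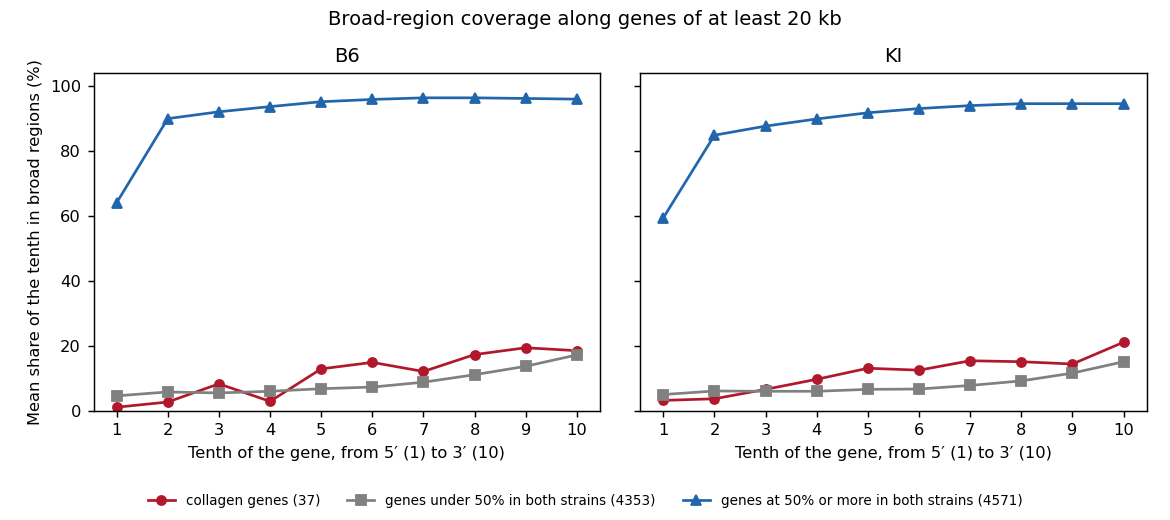
Mean coverage by broad regions (y axis, %) in 10 equal bins from the 5′ end (1) to the 3′ end (10) of genes of 20 kb or more, for 37 collagen genes, 4353 genes unmarked in both strains and 4571 genes marked in both. The collagen genes stand at 1.1% in the first bin and 18.5% in the last in B6, and at 3.2% and 21.1% in KI. They lie near the unmarked genes and far below the marked ones. Of these 37 genes, 36 are themselves unmarked in both strains, so this position was largely set by the definition.

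Refined peaks were spread over most collagen genes and, pooled over the members, were sparser per Mb than over all genes. At least 1 lay in 30 members in B6, against a background of 52.6% of all genes, and in 29 in KI, against 55.0%. The share was higher in genes as long as most members. Of the 17 members of 100 to 200 kb, 15 held 1 in B6 (88.2%) against 86.0% of all genes of that length, and 12 in KI (70.6%) against 90.6%. Of the 11 members of 20 to 50 kb, 8 did in each strain (72.7%), against 71.8% in B6 and 74.9% in KI. Pooled per length, refined peaks were sparser, with 141 peaks or 30.3 per Mb in B6 against 44.1 per Mb over all genes. In KI there were 127 peaks or 27.3 per Mb against 53.2. This did not hold in every length class. Members of 20 to 50 kb had 49.4 per Mb in B6 against 48.1 for all genes of that length, and 68.7 against 57.9 in KI. For members of 100 to 200 kb these values were 36.5 against 49.2 in B6 and 25.1 against 62.6 in KI. For those of 200 kb or more they were 17.1 against 36.4 and 19.4 against 41.5. In the 38 collagen genes that were unmarked in both strains there were 28.7 per Mb in B6 and 26.8 in KI, beside 24.6 and 23.4 in all unmarked genes. Col4a1 held 6 in B6 and 4 in KI, and Col5a1 held the most, with 26 in B6 and 21 in KI. Col22a1 followed with 24 and 16, Col4a4 with 18 and 6, and Col4a3 with 13 and 4. Each of these 4 had more peaks in B6 than in KI, while Col16a1 had 4 in B6 and 8 in KI, and Col7a1 had 2 and 7.

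Few of these peaks lay at the same place in both strains. In B6, 23 of 141 overlapped a refined peak of KI by at least 1 bp (16.3%, Wilson 95% interval 11.1% to 23.3%), and in KI 23 of 127 overlapped 1 of B6 (18.1%, 12.4% to 25.7%). The shares over all genes were 19.1% and 15.8%. The intervals cover the number of peaks only. The 23 pairs lay in 12 genes, with 5 in Col5a1, 4 in Col22a1, 2 each in Col4a3, Col4a4, Col16a1 and Col7a1, and 1 each in Col1a2, Col11a2, Col27a1, Col9a3, Col20a1 and Col15a1. Both B6 peaks of Col7a1 were among them. A further 28 peaks of B6 (19.9%) and 33 of KI (26.0%) met only a broad region of the other strain, against 43.8% and 65.0% over all genes. That left 90 peaks of B6 (63.8%, 55.6% to 71.3%) and 71 of KI (55.9%, 47.2% to 64.2%) with no region of either kind in the other strain. Over all genes these shares were 37.1% and 19.2%, in genes unmarked in both strains 64.2% and 55.0%, and in genes marked in both 15.6% and 4.0%. The collagen genes stood beside the unmarked genes in this measure, within their counting intervals in both strains. Of the collagen genes, 38 were themselves unmarked in both strains. The measure counts peaks that meet no broad region of the other strain, and low coverage by broad regions defines the unmarked genes. The closeness was thus largely built into the comparison, and no conclusion is drawn from it. Whether these peaks lie at hotspots was not analysed here.

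Collagen genes are cut into many short exons, and the share of refined peaks centred on an exon was near the share of length in exons. The members had 1919 coding segments, of which 61.8% had a length that is a multiple of 9 bp and 463 measured 54 bp, a length typical of exons that encode the helix. Exons made up 6.6% of the length of the collagen genes, and the midpoint of 11 of 141 refined peaks in B6 lay in an exon (7.8%, Wilson 95% interval 4.4% to 13.4%) and of 6 of 127 in KI (4.7%, 2.2% to 9.9%). Both intervals contain 6.6%. Over all genes exons made up 7.8% of the length, and 11.3% of midpoints in B6 and 10.6% in KI lay in them. By any overlap of 1 bp, 28.4% of the peaks in collagen genes touched an exon in B6 and 33.1% in KI, against 8341 of 41692 peaks in B6 and 9533 of 50260 in KI over all genes. Peak width was like that of all genes, with medians of 320 and 333 bp against 316 and 323 bp. The widest in B6 were 1 of 1545 bp in Col5a1, 1 of 1524 bp in Col4a4 and 1 of 1228 bp in Col8a2. In KI they were 1 of 1743 bp in Col27a1, 1 of 1723 bp in Col23a1 and 1 of 1537 bp in Col15a1. Of these 6, those in Col5a1 and Col27a1 met a refined peak of the other strain and the other 4 met no region of it.

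Genes that act on collagen were grouped by the step at which they act, and each list is to be read against the 43.2% of all genes marked in B6 and the 41.6% in KI. Of 16 enzymes and chaperones that modify and fold the chains in the endoplasmic reticulum, 9 were marked in B6 and 8 in KI, with a median coverage of 68.9% and 51.9%. P4hb, a subunit of prolyl 4-hydroxylase with a general role in protein folding, had 100% and 99.5%, Glt25d1, which adds galactose to hydroxylysine, had 92.2% in both, and Lepre1, a prolyl 3-hydroxylase, had 90.8% in both. Of 13 enzymes that trim procollagen and crosslink fibrils outside the cell, 1 was marked in B6 and 0 in KI, with medians of 7.2% and 10.7%. The 1 was Loxl2, a lysyl oxidase, with 90.2% in B6 and 11.1% in KI. Of 10 collagen receptors, 2 were marked in B6 and 1 in KI, with medians of 8.6% and 6.0%. Itgb1, the shared beta chain of the collagen integrins, had 98.0% and 92.8%, and Mrc2, an endocytic receptor, 59.0% and 33.3%. Of 22 other matrix proteins, 10 were marked in B6 and 7 in KI, with medians of 45.4% and 14.9%, led by Fn1 (fibronectin) with 98.9% and 98.1%. The folding enzymes and, in B6, the other matrix proteins thus stood near the share of all genes, while few extracellular enzymes and receptors were marked. These lists were described by their counts, and no test of them was made.

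**Figure D5:**
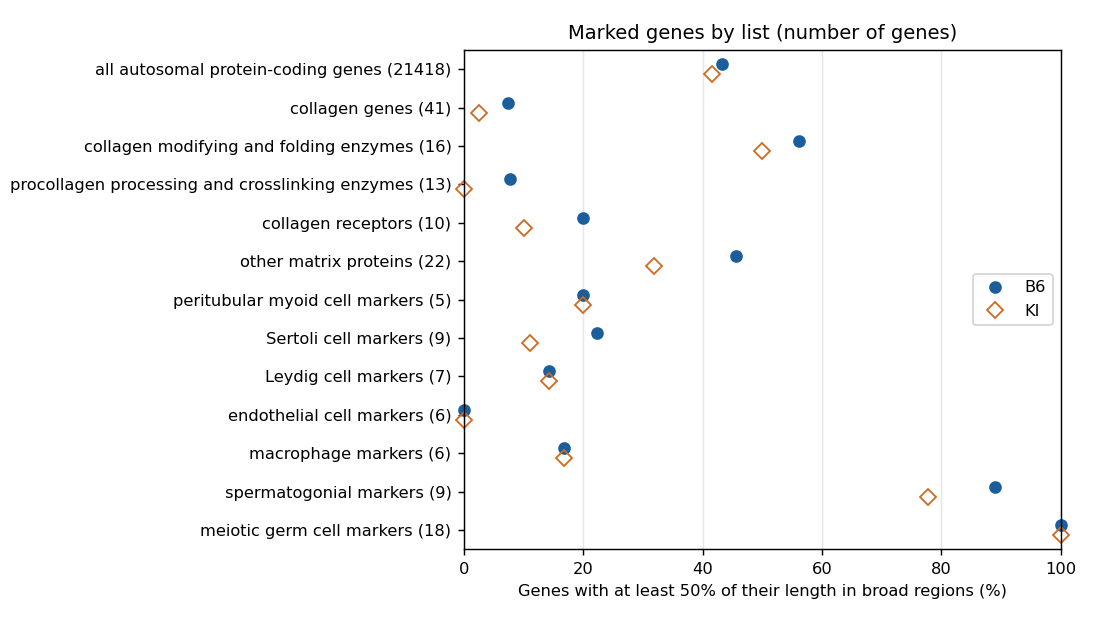
Share of genes with at least 50% coverage (x axis, %) in the collagen genes and the other lists, with the number of genes in parentheses; filled circles are B6 and open diamonds KI. The collagen genes stand at 7.32% and 2.44%, below all genes at 43.2% and 41.6%, and the meiotic markers at 100% in both strains.

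Markers of the cells that the preparation could hold were read in the same way, against the same 43.2% and 41.6% of all genes. All 18 meiotic germ cell markers were marked in both strains, and of 9 spermatogonial markers 8 in B6 and 7 in KI. Of 5 markers of peritubular myoid cells, which lie against the collagen layer of the tubule, 1 was marked in each strain (Tagln, 90% in both), with coverage from 0.0% to 90% and Acta2 and Des at 0. Of 9 Sertoli cell markers, 2 were marked in B6 (Dmrt1 with 98.6% and Wt1 with 71.7%) and 1 in KI (Dmrt1 with 91.7%), with medians of 29.7% and 0.3%. B6 stood at least 10 points above KI in 5 of these 9 and KI as far above B6 in 0, where the shares over all genes were 11.0% and 5.74%, with coverage from 0.0% to 98.6% in B6 and from 0.0% up to 91.7% in KI, Sox9 being at 45.2% in B6 and at 0 in KI, and Inha at 0 in both. Of 7 Leydig cell markers 1 was marked in each strain (Star, 100% in both), with Cyp17a1, Hsd3b1 and Insl3 at 0 in both, and of 6 macrophage markers 1 in each (Cd68, 100% in both), with Itgam at 0 in both. Of 6 endothelial markers none was marked, and coverage reached 18.6% in B6 and 10.1% in KI. Tagln (6431 bp), Star (6837 bp) and Cd68 (1941 bp) are short genes. Whether the broad regions over them also reached neighbouring genes was not analysed, so their coverage need not be a mark of their own. The Sertoli list thus had more coverage in B6 than in KI. The collagen genes were higher in B6 in 17 and in KI in 16, against 6545 and 3773 of all genes. Some of the other lists had an excess in B6 too, and some did not. B6 stood at least 10 points above KI in 8 of the 22 other matrix proteins and KI as far above B6 in 0. In the 9 spermatogonial markers these counts were 3 and 0, in the 16 folding enzymes 4 and 1, and in the 10 collagen receptors 2 and 0. The 13 extracellular enzymes, with 2 and 3, and the meiotic markers, with 0 and 1, had no such excess. The part of the Sertoli list in the collagen differences was not tested. Dmrt1 is also used by spermatogonia, so its value does not separate the 2 cell types.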

How the data were processed

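H3K36me3 ChIP-seq peak lists of 2 strains were analysed. The authors aligned reads to mm9 (BWA 1.2.3 in the submitters' processing notes), merged 2 biological replicates per strain and called peaks with ZINBA against 1 input per strain. The deposited files hold chromosome, start and end only, with no counts or scores, so the depth per region is unknown. Broad regions, deposited once per refined peak, start on a grid of 500 bp and were used once each. The inputs have no list here. Genes and exons are those of GENCODE for mm9. Coverage was the share of a gene's span in the merged broad regions of a strain, and refined peaks were shared from 1 bp of overlap. Wilson 95% intervals on shares of peaks cover counting error only.

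No p-value was computed, since each strain has 1 pooled list. The code (Python 3.11.15, numpy 2.4.6, scipy 1.17.1) was tested on simulated data, where 500 of 500 gene coverages and 300 of 300 shared peaks planted among 1500 were recovered. Members, lists and limits were chosen with earlier results of these data known. Named were the marked members, those at 0 in both strains, the 5 largest strain differences in each direction, the 5 with most refined peaks in each strain, 3 on each side of the 50% limit, Col1a1, Col1a2, Col3a1, Col4a1, Col4a2, Col6a1, Col6a2 and Col18a1, the 3 widest peaks and all shared peaks. Other members were given so that each class was complete. Of other lists at most 3 genes with the highest mean coverage were named, and markers at 0 beside them. Of strain-only peaks, sequence is given for B6 alone, and that of the KI peak is not reported here. 5 listed genes were not found under their symbol among autosomal protein-coding genes. Alternatives were other limits and minimum widths, exons only, bases of no other gene, other overlaps and other gene spans.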

Additional observations from a re-analysis of the deposited data

How the results depend on the processing

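Of 55 recomputed values, 23 stayed near the values reported and 32 moved. The number of marked collagen genes (3 in B6, 1 in KI, 1 in both) was 7, 8 and 5 with a limit of 25%, and 1, 0 and 0 with limits of 75% and of 90%. Over exons only it was 5, 4 and 2, as Col5a1 (71.1%) and Col4a1 (54.1%) joined in B6 and Col10a1 (60.4%), Col20a1 (54.1%) and Col11a2 (51.9%) in KI. With deposited broad regions of at least 5 kb it was 0 in B6, 0 in KI and 0 in both, where long runs were deposited as shorter overlapping pieces. Over bases that no other protein-coding gene overlaps the number was 2, 1 and 1, among 40 members. The following alternatives were chosen after seeing the data. With merged regions of at least 5 kb it was 2, 1 and 0. It was 0 in B6, in KI and in both among the 35 members that overlap no other protein-coding gene, and again 0 in all with broad regions that reach no other such gene. The median coverage (4.9% and 5.4%) fell to 0.0% in B6 and in KI with deposited as with merged regions of at least 5 kb, since most regions in these genes are narrower. The share of refined peaks without a refined peak of the other strain (83.7% in B6, 81.9% in KI) was 75.9% and 71.7% when peaks up to 500 bp apart counted as shared, and 63.8% and 55.9% when broad regions of the other strain counted too. The share of midpoints in exons (7.8% and 4.7%) became 28.4% and 33.1% by any overlap. Numbers of refined peaks moved little. No paired analysis was possible because each strain has 1 pooled list without replicate numbers, and no replicate could be left out. The lists hold no depth or height, so a region that was not called may be unmarked or too shallow to call.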
